A study of Homo sapiens with 6 samples.

Results

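Nascent transcription of the splicing factor genes was examined in A375 cells, an established human malignant melanoma line, with global run-on sequencing. This assay, GRO-seq, lets polymerases that are already engaged on a gene add labelled bases in isolated nuclei, and sequences the new RNA. One group of 2 libraries came from cells given 25 µM leflunomide, another group of 2 from cells given 25 µM A771726, and the control group of 2 from cells given the solvent DMSO, all for 48 h in the same serum-containing medium. Leflunomide carries a closed isoxazole ring and is a prodrug, and A771726, also called teriflunomide, is its ring-opened active form. Both inhibit dihydroorotate dehydrogenase (DHODH), an enzyme of pyrimidine nucleotide synthesis, and the series title ties this inhibition to HEXIM1, an inhibitor of the elongation kinase P-TEFb. The groups are treatments of 1 cell line, and nothing in the labels says that the replicates were separate cultures, so the p-values below measure the spread between these libraries, which may be technical. Members were all genes whose symbol starts with SF3A or SF3B and a digit, U2AF, SNRP, PRPF and a digit, LSM and a digit, SRSF and a digit, or HNRNP. This took 63 of the 12438 gene symbols in the deposited tables, which are 6 SF3A/SF3B, 2 U2AF, 9 SNRP, 9 PRPF, 9 LSM, 9 SRSF and 19 HNRNP genes. The rule itself uses symbols and no measured value.

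Introns are removed by the spliceosome, which is assembled on each transcript from small nuclear ribonucleoproteins (snRNPs) while the polymerase is often still at work. The SNRP genes encode proteins of these particles (the Sm core and proteins particular to U1 or U2), the LSM genes related ring proteins, the SF3A, SF3B and U2AF genes the factors that recognise the branch point and the 3' splice site, and the PRPF genes factors of the tri-snRNP and of catalysis. SR proteins (SRSF) bind exons and usually favour their inclusion, whereas hnRNP proteins (HNRNP) coat nascent RNA and often oppose the use of nearby sites. The balance of SR and hnRNP proteins sets many isoforms, and the branch point factor SF3B1 is recurrently mutated in several cancers, uveal melanoma among them. SF3B1 itself is not among the members, and neither are SRSF3, HNRNPC and SNRPD1, so the families are not complete here.

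RefSeq promoter sequences (build GRCh38.p14, 250 bases before and 50 after the start of each gene) were matched to 53 of the 63 members. Sequences of 5 are shown for the members that the results below turn on, as the 250 bases before the start, 5' to 3' on the gene's strand. SRSF7, chr2:38751495-38751744 (minus strand), and HNRNPH2, chrX:101407972-101408221 (plus strand), had among the lowest gene body densities with A771726 relative to DMSO. SF3B5, chr6:144095574-144095823 (minus strand), had the highest. SF3B14, now named SF3B6, chr2:24076327-24076576 (minus strand), had higher promoter densities with both compounds. SF3B2, chr11:66052114-66052363 (plus strand), had the largest log2 fold change of promoter density between the compounds. Capitals mark matches, on either strand, to the motifs searched: the TATA box TATAAA, the CCAAT box CCAAT, the GC box GGGCGG, the ETS core CCGGAA, the NRF1 core GCATGCG and the YY1 core ATGGCGG.
SRSF7: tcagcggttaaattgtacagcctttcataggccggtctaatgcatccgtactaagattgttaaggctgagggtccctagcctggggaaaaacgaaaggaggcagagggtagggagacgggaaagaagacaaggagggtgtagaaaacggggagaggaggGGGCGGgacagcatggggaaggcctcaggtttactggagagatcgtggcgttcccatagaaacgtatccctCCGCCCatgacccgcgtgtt
HNRNPH2: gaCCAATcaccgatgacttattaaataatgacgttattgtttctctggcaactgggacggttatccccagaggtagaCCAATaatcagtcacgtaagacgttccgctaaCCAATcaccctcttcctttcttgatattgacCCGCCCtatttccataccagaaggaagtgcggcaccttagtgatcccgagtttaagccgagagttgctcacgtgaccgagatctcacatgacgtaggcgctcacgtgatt
SF3B5: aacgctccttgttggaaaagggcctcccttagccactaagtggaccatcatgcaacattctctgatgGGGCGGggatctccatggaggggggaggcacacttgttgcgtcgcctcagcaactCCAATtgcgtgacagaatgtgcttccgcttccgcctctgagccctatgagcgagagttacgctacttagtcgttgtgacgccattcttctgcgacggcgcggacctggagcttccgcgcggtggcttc
SF3B14: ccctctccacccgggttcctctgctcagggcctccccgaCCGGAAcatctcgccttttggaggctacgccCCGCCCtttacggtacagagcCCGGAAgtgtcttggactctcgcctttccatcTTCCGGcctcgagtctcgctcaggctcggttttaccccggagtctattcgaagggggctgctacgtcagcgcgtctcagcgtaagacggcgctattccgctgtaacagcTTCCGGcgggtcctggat
SF3B2: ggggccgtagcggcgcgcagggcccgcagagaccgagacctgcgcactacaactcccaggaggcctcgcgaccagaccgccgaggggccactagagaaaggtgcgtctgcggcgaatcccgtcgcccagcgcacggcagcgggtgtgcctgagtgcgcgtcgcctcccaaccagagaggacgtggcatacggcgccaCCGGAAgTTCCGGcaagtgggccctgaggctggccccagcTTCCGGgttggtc
SF3B14 held 4 ETS cores in these bases and SF3B2 held 3, SRSF7 held GC boxes alone, and HNRNPH2 held 3 CCAAT boxes and a GC box. Over the whole 300 base window, the GC box was found in 33 of the 53 members (62.3%) and in 44.6% of all 27305 RefSeq promoters. CCAAT was found in 25 members (47.2%, against 35.7% of all promoters), CCGGAA in 19 (35.8% against 17.6%), ATGGCGG in 8 (15.1% against 5.72%) and GCATGCG in 4 (7.55% against 4.13%). TATAAA was found in 3 members (5.66% against 12%). These are matches of letters, given without a test, and motifs sharing bases were each counted.

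The deposited tables give, for each gene, the authors' mean over the 2 libraries of a group of the density of reads in the promoter window and in the gene body, and of the traveling ratio, which is promoter density over gene body density. Densities are in the deposited units, which the sources used here do not name. The pair of library values behind each mean was recovered by arithmetic for 55 members in all groups. Where 2 values are printed for a group they are these, in an order that carries no replicate letter. Where 1 density is printed for a group it is the authors' mean, also for some genes with recovered values. Each fold change is the log2 quotient of 2 group means, both raised by a pseudocount (0.0022 for gene bodies, 0.01735 for promoters, none for ratios), which understates the change of low genes. One promoter read was worth 0.0347 or 0.0376 with leflunomide, 0.0241 or 0.0313 with A771726 and 0.0438 or 0.0520 in DMSO, depending on the library. Members had medians of 3 to 5 promoter reads per library where whole reads could be counted, so 1 read moves many of the promoter values. Of 9 symbols searched for melanocytic markers, among them PMEL and its former name SILV, 4 were in the tables. The transcription factor gene SOX10 lay at the 98.4th percentile of gene body density in DMSO. In contrast, MLANA lay at the 42.2th, MITF at the 36.4th and PMEL at the 32.0th, all below the median gene. PECAM1, the 1 of 5 markers of other cell types in the tables, lay at the 19.7th.

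The splicing factor genes were among the more heavily transcribed genes. In DMSO their median gene body density was 0.0693, against 0.0196 over all genes. The median member stood at the 85.6th percentile, 57 of 63 stood above the median gene and 25 among the highest 10% of genes. The highest member was HNRNPA2B1, an RNA-binding protein gene of the nuclear ribonucleoprotein core, with 0.381 in leflunomide, 0.265 in A771726 and 0.410 in DMSO. In DMSO the highest SRSF gene was SRSF2 (0.279), the highest U2AF gene U2AF2 (0.116), the highest SNRP gene SNRPB (0.123), the highest PRPF gene PRPF38B (0.111), the highest SF3 gene SF3B2 (0.107) and the highest LSM gene LSM14B (0.0991). Promoter density in DMSO had a median of 0.184 over the members and 0.0219 over all genes, and the promoter was listed at 0 in 2 members and in 42.9% of all genes. A few members carry a caution: HNRNPA1P10 and HNRNPA3P1 are pseudogenes and HNRNPCL1 is a near copy of HNRNPC, so reads may be shared with their parent genes. HNRNPUL2-BSCL2 is a read-through transcript that overlaps HNRNPUL2, and HNRNPU-AS1 lies antisense to HNRNPU, with the strand used in counting not given in the sources used here.

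With A771726, gene body density was lower than in DMSO across nearly all splicing factor genes, by about as much as across genes at large, and with leflunomide it was close to DMSO. How these bulk libraries were scaled to each other is not given in the sources used here. A lower density thus does not by itself show fewer transcribing cells or less new RNA per cell, and neither was tested. Of the 63 members, 62 passed the filter on low gene body density and HNRNPA3P1 did not. The members' median log2 change was −0.07 with leflunomide (all genes −0.06) and −0.56 with A771726 (all genes −0.52). With A771726, 57 of 62 members lay below 0, whereas 35 lay below and 27 above the change of the median gene. With A771726, 14 members were at least 2-fold lower and 0 at least 2-fold higher (18.5% and 0.839% of all 8706 genes). With leflunomide, 1 member was at least 2-fold higher (1.84% of all genes) and 0 were at least 2-fold lower (4.49%), and the members ranged from −0.74 to 1.65. In the plot of changes by family, the SRSF genes sit lowest under A771726.

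**Figure D1:**
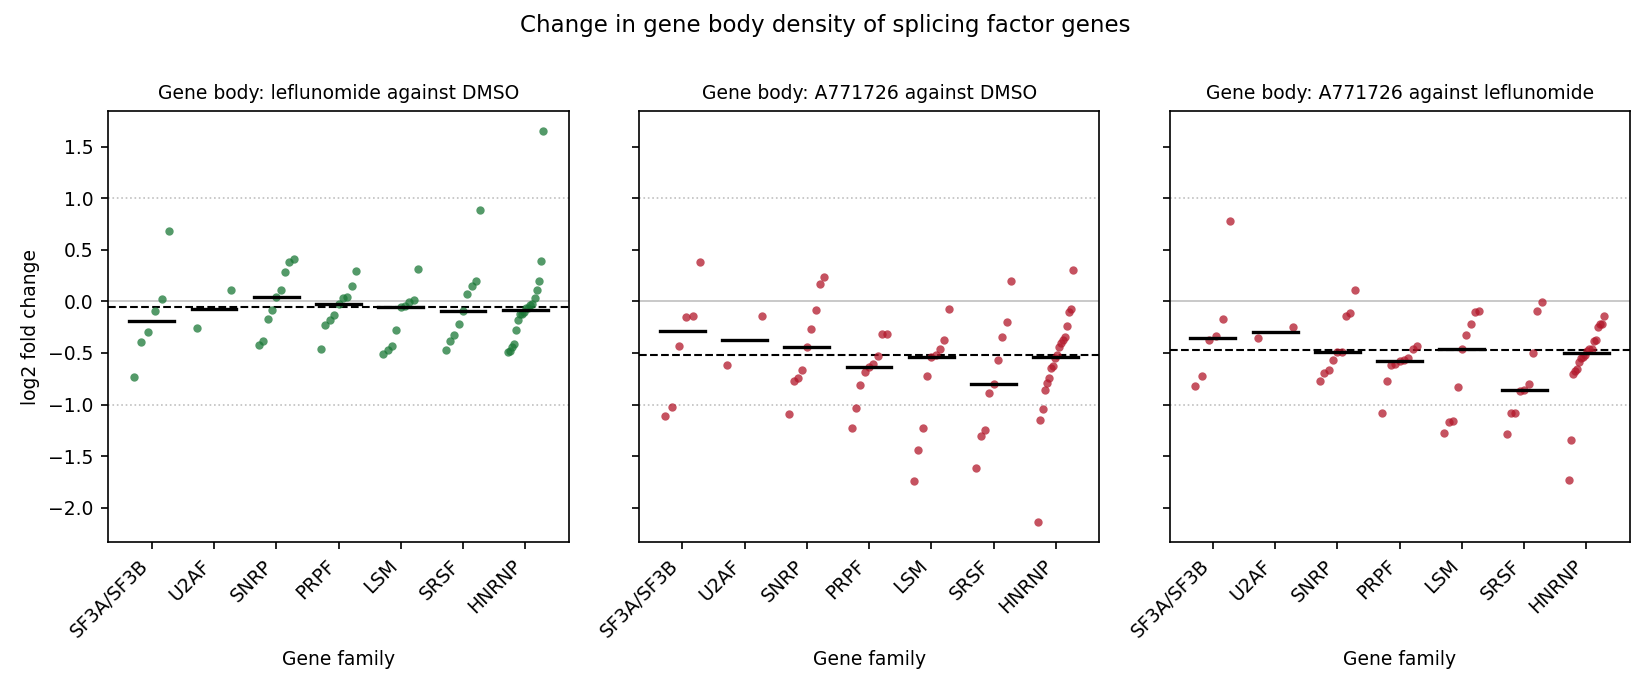
Log2 fold change in gene body density (vertical axis) of the 62 splicing factor genes past the filter, by gene family (horizontal axis), for leflunomide against DMSO, A771726 against DMSO and A771726 against leflunomide. Each point is 1 gene, the black bar is the family median, the dashed line the median of all 8706 genes (−0.06, −0.52 and −0.47) and the dotted lines a 2-fold change; under A771726 57 of 62 points lie below 0, around the dashed line.

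Library by library, both A771726 values lay below both DMSO values in 39 of the 55 members with recovered values (70.9%, against 55.7% of 4941 genes) and above them in 2 (2.02% of genes). Both leflunomide values lay below both DMSO values in 11 members (20.0%, against 21.4% of genes) and above them in 4 (13.9% of genes), which were HNRNPR, LSM12, SF3B4 and SRSF8. The limma fit of all genes, with Benjamini-Hochberg adjustment, called 0 of the 55 members, and 0 of 4941 genes, in each comparison. At an unadjusted p under 0.05 it had 1 member with leflunomide (4.78% of genes), 16 with A771726 (22.5% of genes) and 7 between the compounds (15.2% of genes). The 95% intervals, which are not adjusted for the number of genes, reached a median of 0.81 log2 units to either side over the members. Differences below about that size were thus not detectable even before adjustment. Much larger ones were not called after it, such as the limma estimate of −2.25 for HNRNPH2 with A771726 (adjusted p = 0.123). The medians over the 34 members whose libraries could be told apart were 0.0588 and 0.0596 in the leflunomide libraries, 0.0469 and 0.0306 in the A771726 libraries, and 0.0617 and 0.0599 in the DMSO libraries. Over all genes recovered in the same way they were 0.0368 and 0.0341 in leflunomide, 0.0271 and 0.0222 in A771726, and 0.0397 and 0.0341 in DMSO, so the A771726 libraries were lower throughout, the second one more so. How the libraries were scaled to each other is not given in the sources used here, and its part in the lower densities was not tested. The median limma change of these 34 members was −0.05 with leflunomide and −0.58 with A771726, and the leflunomide value was 0.10 without the first DMSO library. Changes with A771726 are also given relative to the median gene.

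The SRSF genes, which encode SR proteins, had the lowest family median with A771726, −0.80 against DMSO (−0.28 relative to the median gene). In 7 of 9 SRSF genes both A771726 values lay below both DMSO values (55.7% of all genes). SRSF7 had gene body densities of 0.154 and 0.183 in leflunomide, 0.0342 and 0.101 in A771726, and 0.194 and 0.230 in DMSO. Its A771726 libraries lay below all others, and its leflunomide libraries also below those of DMSO. The log2 change of SRSF7 from the means was −1.61 with A771726 (−1.10 relative to the median gene), with a limma estimate of −1.80 (95% interval −2.92 to −0.68, adjusted p = 0.135). SRSF2, whose product is an SR protein of nuclear speckles, had 0.267 and 0.211 in leflunomide, 0.148 and 0.0751 in A771726, and 0.396 and 0.161 in DMSO. Both of its A771726 values were the lowest, with the DMSO libraries far apart (log2 change −1.30, and −0.78 relative to the median gene). SRSF9 had 0.102 and 0.0801 in leflunomide, 0.0758 and 0.0226 in A771726, and 0.129 and 0.110 in DMSO. The 3 groups of SRSF9 did not overlap, and its log2 change was −1.24 with A771726.

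SRSF5 and SRSF8 showed other patterns. SRSF5 had 0.107 and 0.0832 in leflunomide, 0.0931 and 0.0964 in A771726, and 0.0865 and 0.0788 in DMSO. Its A771726 values lay just above those of DMSO, at a log2 change of 0.19 (0.71 relative to the median gene) with a limma estimate of 0.19 (95% interval −0.51 to 0.90, adjusted p = 0.683). SRSF8, a member of the same family, had 0.110 and 0.119 in leflunomide, 0.0493 and 0.0561 in A771726, and 0.0597 and 0.0621 in DMSO. Both leflunomide values were above all others, at a log2 change of 0.88 against DMSO and a limma estimate of 0.88 (95% interval 0.17 to 1.59, adjusted p = 0.951). It was the 1 member with an unadjusted limma p under 0.05 for leflunomide, and it did not pass after adjustment.

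Among the genes of branch point and 3' splice site recognition, the SF3A/SF3B median was −0.29 with A771726 and the U2AF median −0.38. Relative to the median gene both turn positive, at 0.23 and 0.14. SF3B2, a subunit of the SF3B complex of the U2 snRNP, had 0.0830 and 0.0907 in leflunomide, 0.0586 and 0.0448 in A771726, and 0.0944 and 0.120 in DMSO. The 3 groups of SF3B2 were separate, with A771726 lowest (log2 change −1.02, limma estimate −1.02, 95% interval −1.77 to −0.27, adjusted p = 0.163). SF3B14, whose product contacts the branch point region, had 0.0216 and 0.0375 in leflunomide, 0.0300 and 0.0146 in A771726, and 0.0636 and 0.0378 in DMSO. Both compounds lay below DMSO here, at −0.74 for leflunomide, the lowest of all members, and −1.11 for A771726. SF3B5, another SF3B subunit, had 0.0182 and 0.0131 in leflunomide, 0.0294 and 0.0273 in A771726, and 0.0153 and 0.0272 in DMSO. Its A771726 values were the highest, the upper DMSO value almost reaching them, at a log2 change of 0.38 (limma estimate 0.43, 95% interval −0.43 to 1.29, adjusted p = 0.463). SF3B4 had 0.135 and 0.192 in leflunomide, 0.0624 and 0.120 in A771726, and 0.0790 and 0.123 in DMSO, so that leflunomide lay above DMSO by 0.68 while A771726 overlapped it. U2AF2, the large U2AF subunit, overlapped among all groups (0.127 and 0.123 in leflunomide, 0.130 and 0.0796 in A771726, 0.135 and 0.0961 in DMSO).

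The SNRP median was 0.04 with leflunomide and −0.45 with A771726, and the A771726 median turns to 0.07 relative to the median gene. SNRPA, which encodes a protein of the U1 snRNP, was the 1 SNRP gene at least 2-fold lower with A771726. It had 0.0748 and 0.0554 in leflunomide, 0.0519 and 0.0283 in A771726, and 0.0716 and 0.105 in DMSO. Its A771726 values were below the others, at a log2 change of −1.10 (limma estimate −1.13, 95% interval −2.09 to −0.17, adjusted p = 0.188). SNRPC, for another U1 protein, and SNRPN, for a tissue-restricted Sm protein, had log2 changes of 0.16 and 0.24 with A771726, but their libraries overlapped: SNRPN had 0.0142 and 0.0275 in leflunomide, 0.0181 and 0.0193 in A771726, and 0.0240 and 0.0071 in DMSO. SNRPB, for the Sm proteins B and B', had 0.121 and 0.134 in leflunomide, 0.0860 and 0.0934 in A771726, and 0.139 and 0.107 in DMSO, with A771726 lowest.

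All 9 PRPF genes lay below 0 with A771726, with a median of −0.64 (−0.12 relative to the median gene), and in 7 of them both A771726 values lay below both DMSO values (55.7% of all genes). PRPF6, a tri-snRNP protein gene, had 0.0327 and 0.0247 in leflunomide, 0.0166 and 0.0082 in A771726, and 0.0293 and 0.0262 in DMSO. Leflunomide and DMSO overlapped there, while A771726 was lower, at a log2 change of −1.04 (limma estimate −1.10, 95% interval −1.99 to −0.20, adjusted p = 0.181). PRPF40B, the gene of a U1-associated protein, had 0.0594 and 0.0429 in leflunomide, 0.0446 and 0.0134 in A771726, and 0.0531 and 0.0890 in DMSO. Its A771726 values lay below DMSO (log2 change −1.23) and overlapped those of leflunomide. PRPF8, the large protein at the catalytic centre, had 0.0484 and 0.0488 in leflunomide, 0.0414 and 0.0279 in A771726, and 0.0512 and 0.0363 in DMSO, so its A771726 and DMSO values overlapped.

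Of the 9 LSM genes, which encode proteins of Sm-like rings and their relatives, 4 had recovered values in all groups. The LSM median was −0.54 with A771726 (−0.02 relative to the median gene), and 3 were at least 2-fold lower. LSM10, a protein of the U7 snRNP that processes histone transcripts, had 0.0436 and 0.0126 in leflunomide, 0.0181 and 0.0026 in A771726, and 0.0403 and 0.0392 in DMSO. A771726 lay below DMSO at −1.74 (limma estimate −2.09, 95% interval −3.83 to −0.35, adjusted p = 0.186), and the wide interval goes with the spread between its libraries. LSM14B, of cytoplasmic RNA granules, and LSM5, of the LSM ring that binds U6, are given as the authors' means. LSM14B had 0.0813 in leflunomide, 0.0351 in A771726 and 0.0991 in DMSO (log2 change −1.44 with A771726), and LSM5 had 0.0618 in leflunomide, 0.0262 in A771726 and 0.0644 in DMSO (−1.23).

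The 18 HNRNP genes past the filter had a median of −0.09 with leflunomide and −0.54 with A771726 (−0.02 relative to the median gene). In 13 of the 16 with recovered values both A771726 values lay below both DMSO values (55.7% of all genes). HNRNPH2, an X-linked relative of the G-run binding protein HNRNPH1, had the lowest change of all members with A771726. Its densities were 0.0191 and 0.0259 in leflunomide, 0.0083 and 0.0022 in A771726, and 0.0362 and 0.0251 in DMSO. Its A771726 libraries lay well below the rest, which overlapped. The log2 change was −2.14 with A771726 (−1.62 relative to the median gene), and the limma estimate was −2.25 (95% interval −3.35 to −1.15, adjusted p = 0.123). Without the first A771726 library limma called it (adjusted p = 0.0479), the only such call in any member when 1 library was left out. That leaves 1 A771726 library, the lower one, which is then assumed to vary like the other groups. HNRNPF, of the same subfamily, had 0.0897 and 0.0892 in leflunomide, 0.0747 and 0.0459 in A771726, and 0.123 and 0.130 in DMSO, separate groups with A771726 lowest, at log2 changes of −0.49 with leflunomide and −1.04 with A771726. HNRNPU-AS1 had 0.136 and 0.157 in leflunomide, 0.118 and 0.0605 in A771726, and 0.193 and 0.208 in DMSO (log2 changes −0.44 with leflunomide and −1.15 with A771726), both compounds lying below DMSO. HNRNPU, on the other strand, had 0.215 and 0.264 in leflunomide, 0.228 and 0.206 in A771726, and 0.270 and 0.197 in DMSO, with all groups overlapping. HNRNPCL1 was the member at least 2-fold higher with leflunomide, at means of 0.0272 in leflunomide, 0.0094 in A771726 and 0.0072 in DMSO, near the low end of the tables and with a promoter listed at 0 in every group.

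**Figure D2:**
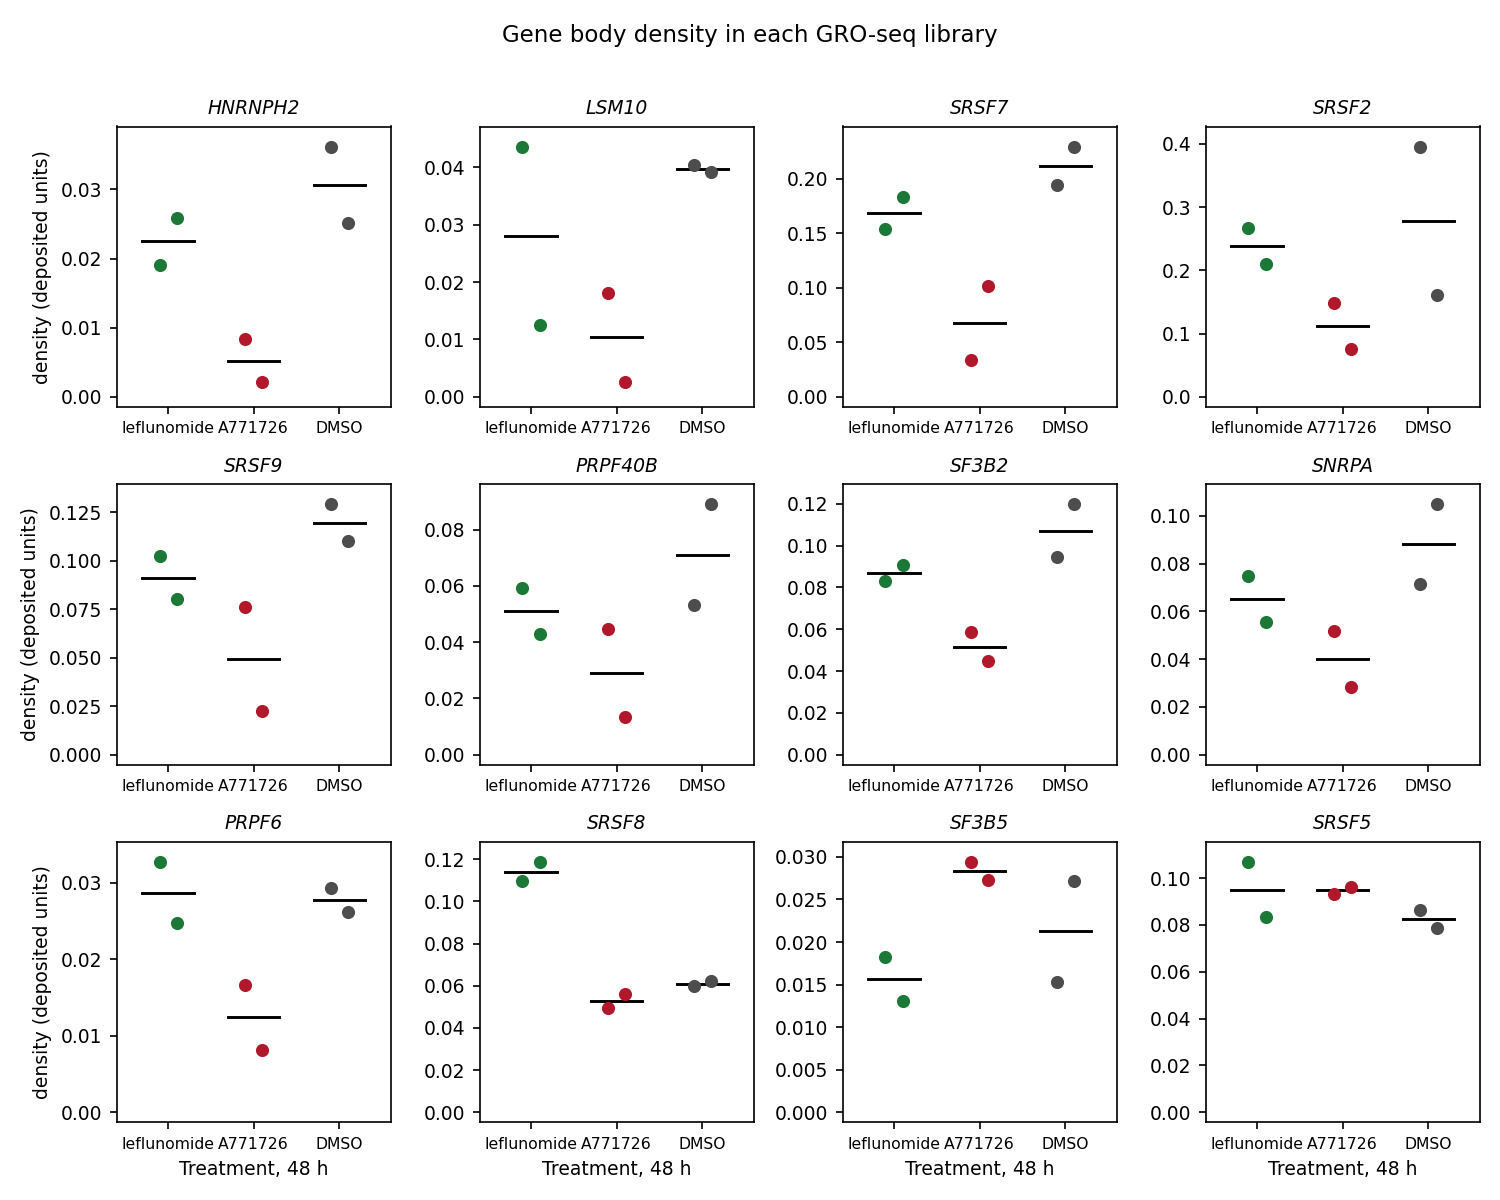
Gene body density in deposited units (vertical axis, from 0) of 12 splicing factor genes in each library of the leflunomide, A771726 and DMSO groups (horizontal axis). Points are the 2 recovered libraries of a group and black bars the authors' means; HNRNPH2 is lowest in A771726 (0.0083 and 0.0022), SRSF8 highest in leflunomide (0.110 and 0.119), and SF3B5 and SRSF5 lie at or above DMSO in A771726.

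Changes of promoter density scattered widely between members, and their medians against DMSO lay below those of genes at large. Of the 63 members, 61 passed the promoter filter. Members and genes at large started from unlike levels in DMSO, with median promoter densities of 0.184 and 0.0219. Before the filter, the DMSO promoter was listed at 0 in 2 members and in 42.9% of all genes, and such a promoter cannot go lower. The limit of 7.5 on the DMSO ratio, described below, may also bound promoter values in DMSO. The part of these differences in the lower member medians was not tested. The members' median log2 change was −0.32 with leflunomide, where the median of all genes was 0.22, and −0.57 with A771726, where it was 0.00. With leflunomide 43 of 61 members lay below the median gene and with A771726 40 of 61; the 2 comparisons share the DMSO libraries. With leflunomide, 6 members were at least 2-fold higher (30.6% of 8838 genes) and 15 at least 2-fold lower (16% of genes). With A771726 the counts were 6 (20.8% of genes) and 18 (26% of genes). Both leflunomide values lay above both DMSO values in 6 of 55 members (16.6% of 5198 genes) and below them in 12 (10.6%), and both A771726 values lay above in 4 (10.3%) and below in 12 (16%). Limma called 0 members in each comparison, where it called 2 of 5198 genes (0.0385%) with leflunomide, 4 (0.077%) with A771726 and 0 between the compounds. At an unadjusted p under 0.05 it had 2 members with leflunomide (2.02% of genes), 3 with A771726 (3.69%) and 2 between the compounds (2.5%), and the 95% intervals reached a median of 2.30 log2 units to either side. Over the 55 members the limma medians were −0.11 with leflunomide and −0.45 with A771726 (all genes 0.25 and −0.12). Over the 34 members with libraries told apart they were 0.09 and −0.37. The leflunomide median was −0.10 without the first leflunomide library, and the A771726 median was 0.22 without the second A771726 library and −0.04 without the first DMSO library.

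Higher promoter values were found at SF3B14, whose promoter sequence is printed above. It had 0.173 and 0.309 in leflunomide, 0.120 and 0.344 in A771726, and 0.0438 and 0.0520 in DMSO, the last being 1 read in each library. All treated libraries were above DMSO, at log2 changes of 1.99 for leflunomide and 1.94 for A771726. The limma estimates were 1.94 for leflunomide (95% interval −0.36 to 4.23, adjusted p = 0.996) and 1.78 for A771726 (−0.52 to 4.07, adjusted p = 0.994). Both A771726 values also exceeded both DMSO values at HNRNPUL1 and SNRPA1, of which HNRNPUL1 is named after its values were seen. HNRNPUL1, a relative of the scaffold protein HNRNPU, had 0.486 and 0.489 in leflunomide, 0.505 and 0.376 in A771726, and 0.265 and 0.104 in DMSO. All of its treated libraries lay above DMSO, at a log2 change of 1.32 with leflunomide. SNRPA1, for a U2 snRNP protein, had 0.312 and 0.0752 in leflunomide, 0.529 and 0.157 in A771726, and 0.0811 and 0.156 in DMSO. Its lower A771726 value barely exceeded the upper DMSO value, at a log2 change of 1.41 with A771726, and leflunomide overlapped DMSO. U2AF1, the small U2AF subunit, had the highest change with leflunomide (2.14), yet each of its groups had 1 library at 0: it had 0.312 and 0 in leflunomide, 0 and 0.219 in A771726, and 0.0438 and 0 in DMSO.

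The promoter medians of 4 families lay below 0 with both compounds. With leflunomide they were −0.32 (SRSF), −0.999 (LSM), −0.33 (PRPF) and −0.52 (HNRNP). Under A771726 these medians were −0.87 (SRSF), −0.74 (LSM), −0.74 (PRPF) and −0.38 (HNRNP). The SNRP median was 0.64 under leflunomide and 0.19 under A771726. SRSF5 had 0.416 and 0.301 in leflunomide, 0.144 and 0.157 in A771726, and 0.700 and 0.405 in DMSO. Its A771726 promoter values were below all others, at a log2 change of −1.76 (limma estimate −1.71, 95% interval −3.29 to −0.14, adjusted p = 0.994), while its gene body was not lower. HNRNPK, a poly(C)-binding protein gene, had 0.128 and 0.0752 in leflunomide, 0 and 0.105 in A771726, and 0.253 and 0.364 in DMSO, so both compounds lay below DMSO (log2 changes −1.46 for leflunomide and −2.22 for A771726). PRPF38A had 0.135 and 0.0752 in leflunomide, 0.0241 and 0.0313 in A771726, and 0.0875 and 0.312 in DMSO, the A771726 values being 1 read each (log2 change −2.27). SF3A2, a U2 snRNP subunit, had 0.0347 and 0.0119 in leflunomide, 0 and 0.193 in A771726, and 0.362 and 0.156 in DMSO. Its lowest mean was in leflunomide (−2.76), where 0.0119 is less than 1 read. HNRNPL and LSM7 were listed at a promoter mean of 0 in A771726, against 0.123 and 0.0999 in DMSO, and LSM5 and LSM6 at 0 in leflunomide, against 0.114 and 0.0917 in DMSO. For HNRNPL the sign depends on the transcript row used: with the mean over its rows the change is 1.10.

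**Figure D3:**
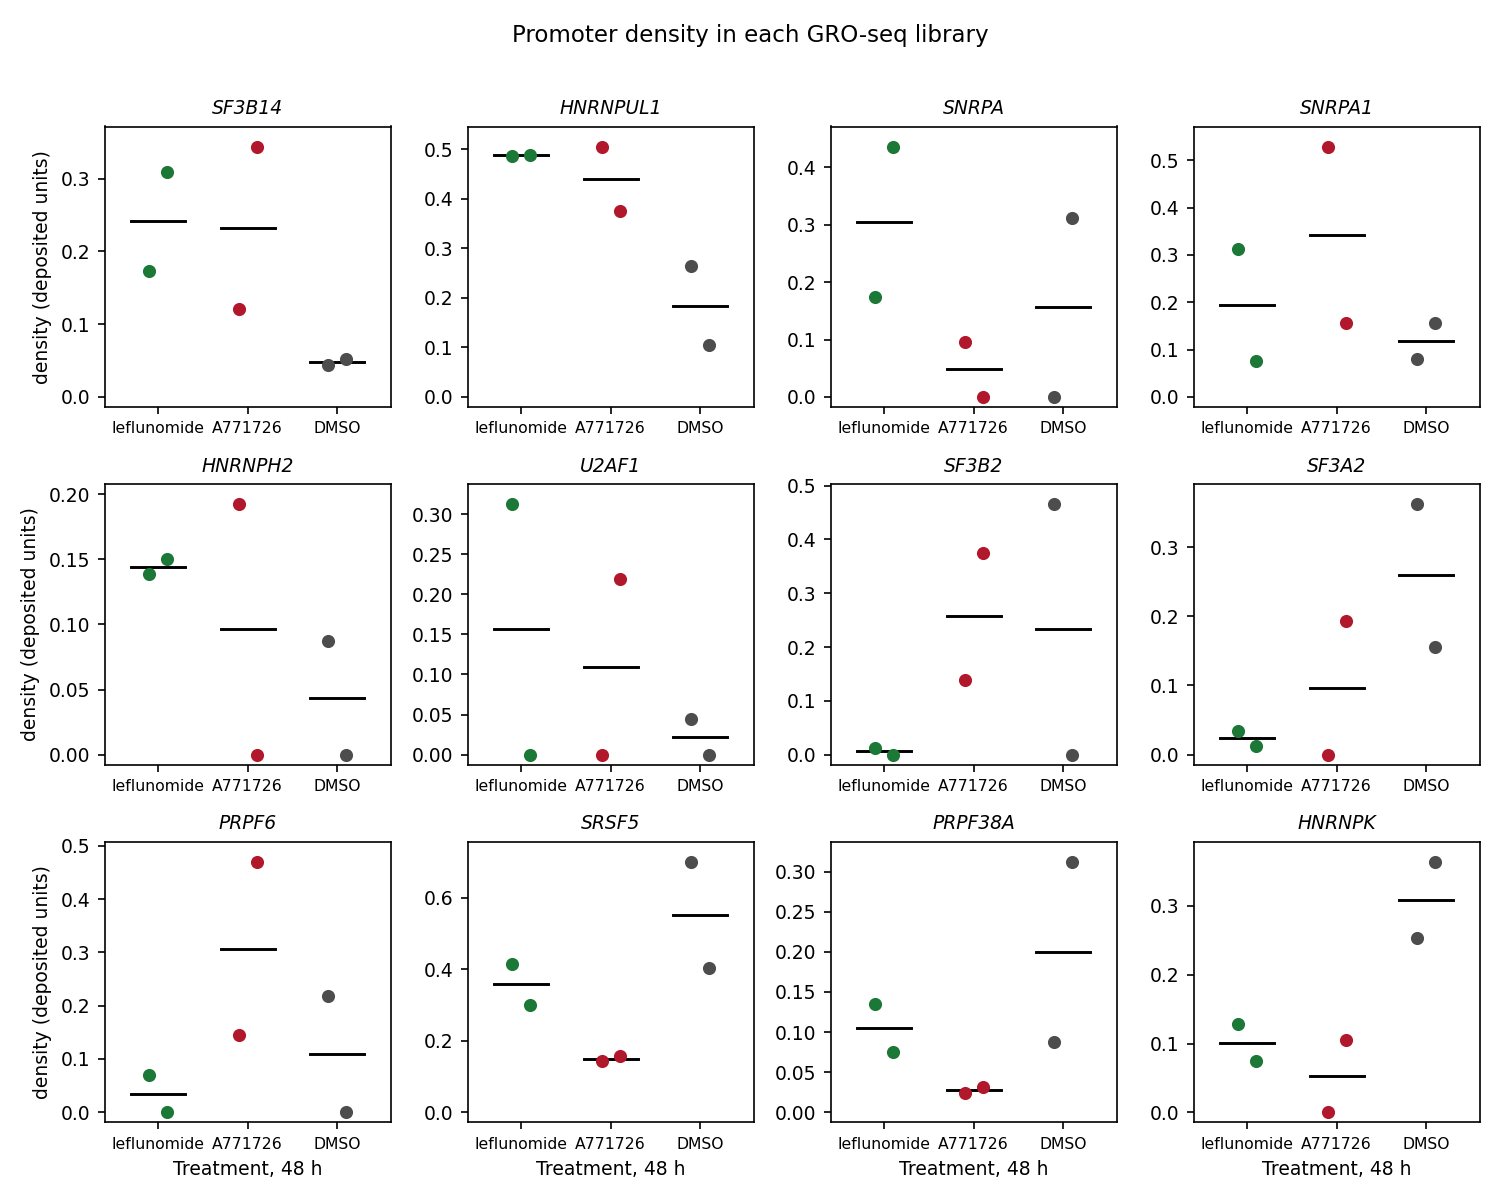
Promoter density in deposited units (vertical axis, from 0) of 12 splicing factor genes in each library of the leflunomide, A771726 and DMSO groups (horizontal axis). Points are the 2 recovered libraries of a group and black bars the authors' means; SF3B14 and HNRNPUL1 lie above DMSO in all 4 treated libraries, SRSF5 and HNRNPK below DMSO in A771726, and U2AF1 has 1 library at 0 in each group.

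The traveling ratio is read as a measure of how much polymerase sits at the promoter relative to the gene body. It was compared in 56 members with a ratio above 0 in every group. The median log2 change of the ratio was −0.19 with leflunomide (all 5173 genes 0.27) and 0.03 with A771726 (all genes 0.42), and 40 and 34 of the 56 members lay below the median gene. With leflunomide 10 members were at least 2-fold higher (27.9% of genes) and 13 at least 2-fold lower (15.3%), and 12 were higher (34.6%) and 9 lower (17.1%) under A771726. Both leflunomide ratios lay above both DMSO ratios in 8 of 55 members (19.6% of genes) and below them in 12 (9.27%), and both A771726 ratios lay above in 11 (19.8%) and below in 8 (8.88%). The tables hold no DMSO ratio above 7.5, whereas ratios above 7.5 were found in 5 members (7.94%, against 11.9% of genes) with leflunomide and in 12 (19.0%, against 14.7%) with A771726. The tables thus appear limited on the DMSO ratio, and with a limit of 7.5 in every group 4 of 42 members were at least 2-fold higher with leflunomide (22% of 3758 genes) and 4 with A771726 (24.5%). Under that limit the member median was −0.23 with leflunomide (all genes 0.05) and turned to −0.16 with A771726 (all genes 0.09). After centring on the median gene, the 2-fold counts were 7 higher and 18 lower for each compound. Limma called 0 of 55 members and 0 of 4941 genes. At an unadjusted p under 0.05 it had 1 member with leflunomide (2.73% of genes), 3 with A771726 (4.88%) and 2 between the compounds (2.65%), and the intervals reached a median of 2.74 to either side. Over the 34 members with libraries told apart, the limma median of the ratio was −0.06 with leflunomide and 0.40 with A771726. The leflunomide value was 0.70 without the second leflunomide library and 0.09 without the second DMSO library, and the A771726 value was 0.78 without the second A771726 library and 0.13 without the first DMSO library.

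**Figure D4:**
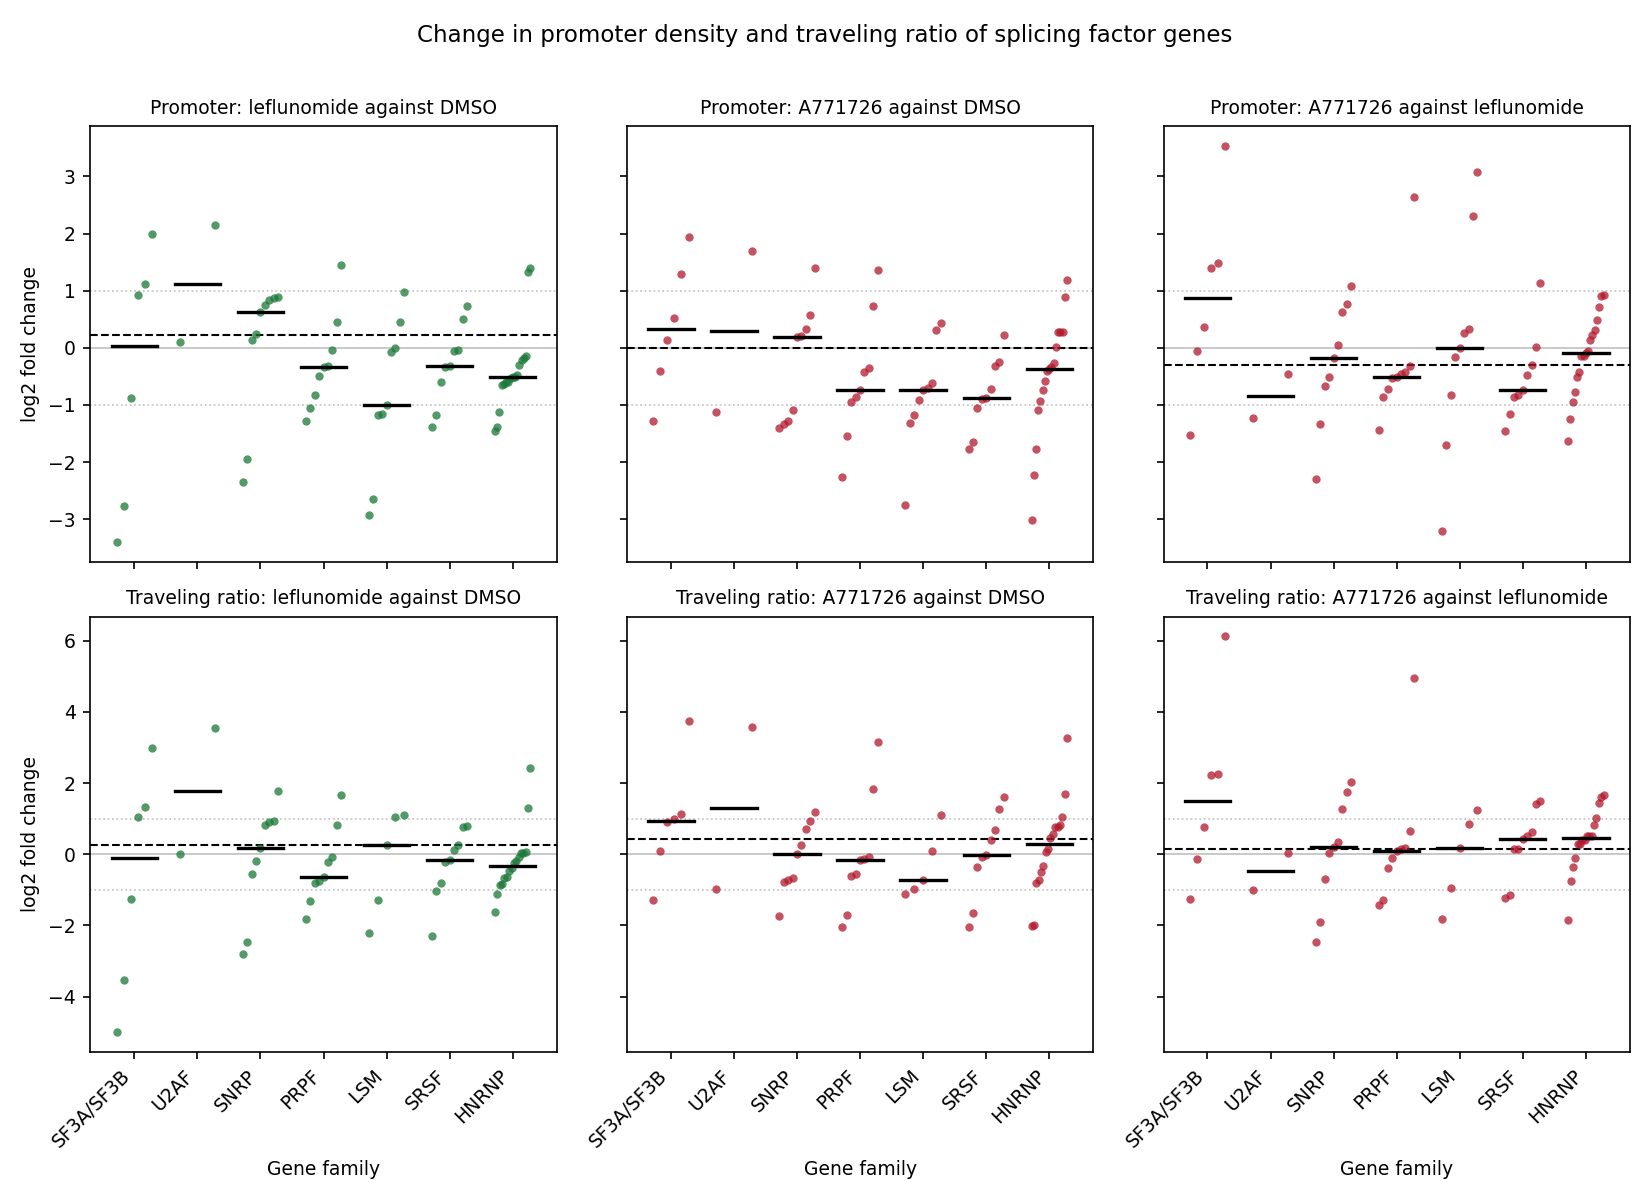
Log2 fold change (vertical axis) in promoter density (upper row, 61 genes) and traveling ratio (lower row, 56 genes) of splicing factor genes by family (horizontal axis) in the 3 comparisons. Each point is 1 gene, black bars are family medians, dashed lines the medians of all genes and dotted lines a 2-fold change; with leflunomide 43 of 61 promoter points and 40 of 56 ratio points lie below the dashed line.

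The highest ratio changes with A771726 were those of SF3B14, U2AF1, HNRNPH2 and PRPF6, which had 0 to 5 promoter reads in each DMSO library. SF3B14 had ratios of 8.03 and 8.24 in leflunomide, 4.01 and 23.6 in A771726, and 0.689 and 1.38 in DMSO. All treated ratios were above DMSO, at log2 changes of 2.98 for leflunomide and 3.74 for A771726. The limma estimates were 2.68 for leflunomide (95% interval 0.22 to 5.13, adjusted p = 1.00) and 2.92 for A771726 (0.46 to 5.38, adjusted p = 0.909). HNRNPH2 had 7.26 and 5.81 in leflunomide, 23.2 and 0 in A771726, and 2.42 and 0 in DMSO, so the A771726 change of 3.26 rests on 1 library, as do the U2AF1 changes of 3.55 with leflunomide and 3.58 with A771726. PRPF6 had 2.12 and 0 in leflunomide, 8.69 and 57.3 in A771726, and 7.47 and 0 in DMSO, both A771726 ratios being the highest (log2 change 3.14, limma estimate 3.23, 95% interval 0.49 to 5.97, adjusted p = 0.909). In the other direction, SF3B2 had 0.154 and 0 in leflunomide, 2.35 and 8.38 in A771726, and 4.93 and 0 in DMSO. Its leflunomide change of −5.00 was the lowest of the members, with a DMSO library also at 0. The leflunomide ratio of 0.154 rests on a promoter density of 0.0128, less than 1 read. SRSF5 had 3.89 and 3.62 in leflunomide, 1.55 and 1.62 in A771726, and 8.10 and 5.13 in DMSO, 3 separate groups with log2 changes of −0.82 for leflunomide and −2.06 for A771726. SNRPG, for a Sm core protein, had 0 and 1.43 in leflunomide, 3.97 and 1.93 in A771726, and 3.40 and 6.70 in DMSO, with leflunomide lowest at −2.82.

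The compounds differ by the isoxazole ring, closed in leflunomide and opened in A771726, and were compared at the matched dose of 25 µM and time of 48 h, as 1 pair with p-values adjusted over all genes. Gene body density of the splicing factor genes was lower with A771726 than with leflunomide, at a member median of −0.53 (all genes −0.47), with 60 of 62 members below 0 and 36 below the median gene. Of the members, 9 were at least 2-fold lower (12.4% of genes) and 0 at least 2-fold higher (1.03%). Both A771726 values lay below both leflunomide values in 36 of 55 members (65.5%, against 55.5% of genes) and above them in 1, SF3B5 (2.19% of genes). The SRSF median was −0.86 (−0.39 relative to the median gene), the lowest of the families. At the genes described above the limma estimates of the difference were −1.85 for HNRNPH2 (95% interval −2.95 to −0.75), −1.47 for SRSF7 (−2.59 to −0.35), −1.08 for SRSF8 (−1.79 to −0.38) and −1.13 for PRPF6 (−2.03 to −0.24), each with adjusted p = 0.324. SRSF5 had an estimate of 0.01 with an interval of −0.70 to 0.71, and U2AF2 −0.29 (−1.10 to 0.52), which leaves room for differences in either direction. SF3B5 had 0.79 (−0.07 to 1.65, adjusted p = 0.336).

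At promoters the members' median difference between the compounds was −0.29 (all genes −0.30), with 8 members at least 2-fold higher with A771726 (13.5% of genes) and 11 at least 2-fold lower (30.6%). Both A771726 values lay above both leflunomide values in 7 of 55 members (7.62% of genes) and below them in 14 (22.5%). SF3B2 had the highest log2 difference, with promoter densities of 0.138 and 0.376 in A771726, against 0.0128 and 0 in leflunomide. The value of 0.0128 is less than 1 promoter read, which was worth 0.0347 or 0.0376 with leflunomide. The limma estimate for SF3B2 was 3.43 (95% interval 0.45 to 6.42, adjusted p = 0.998). PRPF6 had 0.144 and 0.470 in A771726, against 0.0694 and 0 in leflunomide, and SNRPA had 0.0962 and 0 in A771726, against 0.173 and 0.437 in leflunomide. At SF3B2 and PRPF6 both A771726 libraries were above both leflunomide libraries, and at SNRPA both were below. For the traveling ratio the members' median was 0.29 (all genes 0.15), with 14 at least 2-fold higher with A771726 (26.9% of genes) and 9 lower (20.9%). Both A771726 ratios lay above both leflunomide ratios in 13 of 55 members (16.1% of genes) and below them in 8 (13.7%). The highest differences were those of SF3B2 at 6.12 and PRPF6 at 4.96. Over the 34 members with libraries told apart, the limma medians between the compounds were −0.56 for gene bodies, −0.66 for promoters and 0.17 for ratios. Without the second A771726 library the gene body median was −0.30 and the promoter median −0.25, and without the first A771726 library the ratio median was −0.00495.

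Other genes of the splicing machinery, taken from a list of 84 that holds none of the members, had gene body medians near those of the members. Of these, 51 passed the gene body filter, with medians of −0.04 with leflunomide, −0.50 with A771726 and −0.49 between the compounds. None of the 37 with recovered values was called by limma in any comparison. At an unadjusted p under 0.05 there were 1 with leflunomide (4.78% of all genes), 6 with A771726 (22.5%) and 4 between the compounds (15.2%). In 26 of the 37 both A771726 values lay below both DMSO values (55.7% of all genes). With A771726, 6 of the 51 were at least 2-fold lower (18.5% of all genes) and 0 were higher (0.839%). AQR, the gene of an intron-binding helicase, had 0.0124 and 0.0163 in leflunomide, 0.0092 and 0.0029 in A771726, and 0.0143 and 0.0231 in DMSO, with A771726 lowest (log2 change −1.34). DDX39A, of mRNA export, had 0.124 and 0.0849 in leflunomide, 0.0760 and 0.0579 in A771726, and 0.164 and 0.165 in DMSO, 3 groups that did not overlap (−0.65 for leflunomide, −1.27 for A771726). The others were CRNKL1, of the catalytic spliceosome (−1.20), CLK1, an SR protein kinase (−1.11), KHDRBS1, an RNA-binding splicing regulator (−1.10) and GEMIN6, of the SMN complex (−1.08). With leflunomide 2 were at least 2-fold higher, DDX20, also of the SMN complex (1.28), and DHX16, a spliceosomal helicase (1.03), and 0 were lower (1.84% and 4.49% of all genes). The promoter medians of the listed genes were 0.22 with leflunomide and −0.10 with A771726.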

How the data were processed

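GRO-seq of A375 cells was analysed from 2 deposited tables covering 2 libraries for each of leflunomide, A771726 and DMSO. Per the file headers, the deposited promoter and gene body signal (read density) was averaged by the authors over each group's libraries, as was the traveling ratio, and the headers write A771762 for A771726. The submitters' processing notes name Bowtie 0.12.9, bedtools and hg18. Window limits, the method of scaling between libraries and library depth are not stated in the sources used here. The recovered value of 1 promoter read differed between libraries, from 0.0241 in A771726 to 0.0520 in DMSO.

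The row with the highest mean gene body density was kept per symbol, and low genes, under the 30th percentile of row means, were left out. Because deposited densities are means with 4 decimals, the 2 library values behind a mean were solved for from the densities and the ratio; a single solution was found in 96.1% (leflunomide), 95.2% (A771726) and 92.1% (DMSO) of rows with a promoter above 0 and a finite ratio, and the method was tested on simulated data. Genes with a promoter listed at 0 in a group have no recovered values. Recovered densities were tested with limma 3.58.1 (R 4.3.3) with its trend and robust settings, on log2 values with the pseudocount added, in 1 fit of all groups, Benjamini-Hochberg adjusted over 4941 genes (5198 for promoters). Tables were handled in Python 3.11.15 with pandas 2.3.3 and numpy 2.4.6.

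Members and gene lists were chosen with earlier results of these data known. Members were named if at least 2-fold changed in gene body density, among the 5 highest or lowest there or the 4 highest or lowest in promoter density or ratio, or highest in their family in DMSO (41 members, 1 of which is not reported here); others named to fill a count of 5 or fewer, or beside a related member, were chosen after their values were seen. Alternatives were other pseudocounts and filters, centring on the median gene, the mean over rows, a common ratio limit, other limma options and leaving out each library.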

Additional observations from a re-analysis of the deposited data

How the results depend on the processing

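No limma call in a member was gained or lost under any alternative except HNRNPH2 gene body with A771726, called (1 member) without the first A771726 library. No paired analysis was possible because the deposited columns carry no replicate letters. Centring on the median gene takes out any change shared by most genes, from scaling or not, so the part of scaling was not tested. Centred member medians of gene body density are −0.0156 with leflunomide, −0.0383 with A771726 and −0.0582 between the compounds. After centring, members at least 2-fold lower with A771726 are 3 against DMSO and 1 against leflunomide, and 1 is at least 2-fold higher than with leflunomide. Centred medians of the other measures are −0.54 (promoter, leflunomide against DMSO), 0.00383 (promoter, A771726 against leflunomide, with 12 members 2-fold higher and 8 lower), −0.46 (ratio, leflunomide against DMSO, with 7 higher and 18 lower), −0.39 (ratio, A771726 against DMSO, with 7 members 2-fold higher and 18 lower) and 0.14 (ratio, between compounds). With a pseudocount 5 times larger, gene body counts lower are 9 (A771726 against DMSO) and 4 (between compounds), and promoter counts are 8 lower with leflunomide, 3 higher and 7 lower with A771726, and 4 higher and 5 lower between compounds. With a filter at the 50th percentile 0 members are higher with leflunomide, since HNRNPCL1 is left out. A common ratio limit leaves 4, 4 and 9 members 2-fold higher. The mean over rows reverses the HNRNPL promoter, to 1.10 against DMSO and 0.43 against leflunomide.

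Leaving out each library, the median limma change of the members with libraries told apart ranged for gene bodies from −0.16 to 0.10 (leflunomide), −0.73 to −0.44 (A771726) and −0.78 to −0.30 (between compounds), for promoters from −0.10 to 0.49, −0.80 to 0.22 and −0.88 to −0.25, and for ratios from −0.10 to 0.70, 0.13 to 0.78 and −0.00495 to 0.23. Directions turned without 1 library for the gene body and ratio medians with leflunomide, the promoter medians with either compound and the ratio median between the compounds, and the cause was not tested. Single libraries included, 247 alternative values of the comparisons moved by less than the library spread (medians) or by at most 1.5 times (counts), 15 medians moved by more, and 14 counts were lower and 3 higher by more, and of the single genes 449 values stayed on their side of a 2-fold change, 35 dropped under 2-fold, 1 passed it and 2 reversed. Promoter values of few reads limit what the promoter and ratio comparisons can show.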
